A study of Oryza sativa with 4 samples.

Results

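The data described here are the differences between rice genotypes IR29 and Pok in the salt response of their polysomal RNA, that is, of the mRNA bound to ribosomes. For each annotated transcript, the log2 ratio of salt over control was taken in each genotype, centred on its median over all transcripts used, and the IR29 ratio was subtracted from the Pok ratio. This value is called the response difference, and it is positive where Pok lies above IR29. Members were the annotated transcripts above 0 in all 4 libraries and at 5 FPKM or more in at least 1 of them, which left 12032 transcripts of 11442 loci out of 57629 annotated and 89715 assembled transcripts. FPKM counts the sequenced fragments per kilobase of transcript, scaled to the mapped fragments of the library, and 1 FPKM was added before the log2 was taken.

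IR29 is described in the study as salt-sensitive and Pok (Pokkali) as salt-tolerant. The 4 groups were IR29 control, IR29 salt, Pok control and Pok salt, all from 24-day-old seedlings on Yoshida nutrient medium, the salt groups with 150 mM NaCl for 24 h and the control groups with no added NaCl. There was 1 library per group, so no test, p-value or spread between replicates can be given, and every value below is a size that holds for these libraries. The effects of genotype and of salt cannot be separated from those of the library that carries them. Each library came from whole seedlings, roots and shoots together, and RNA of 3 biological replicates was pooled, which the methods state for total RNA and which was taken to hold for polysomal RNA. Fractions of a sucrose gradient with more than 2 ribosomes were pooled, so a change in polysomal RNA can come from the amount of the mRNA or from its loading, and the values here do not tell these apart.

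The summed FPKM was 917853 in IR29 control and between 1640970 and 1910420 in the other 3 libraries, and the number of reads behind a value is not in the table used. Root and leaf genes were measured in each library. The 11 root-expressed transport genes that were members went from a sum of 367 to 132 FPKM in IR29 and from 291 to 416 FPKM in Pok, control to salt. The 12 chlorophyll A-B binding proteins, which are leaf genes, went from 2579 to 913 FPKM in IR29 and from 3453 to 2165 FPKM in Pok. In whole seedlings, fewer cells of a type and less RNA per cell cannot be told apart.

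Salt lowers the water available to roots and brings sodium into the plant. Plants answer with abscisic acid signalling, with dehydrins and other late embryogenesis abundant (LEA) proteins that protect cells low in water, with changes in water channels and ion carriers, and with changes in the cell wall, whose loosening and stiffening set how fast roots and leaves grow. Photosynthesis genes are commonly lowered in stressed leaves.

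The response difference had a median of -0.01 and an SD over transcripts of 0.787 on the log2 scale. For 10435 members (86.7%) it was under 1 in size. Pok lay above IR29 by 1 or more, a factor of 2, for 1058 members (8.79%), and IR29 lay above Pok by as much for 539 members (4.48%). Thus 66.2% of the 1597 members past the limit lay on the side of Pok, a share that was 50.7% without centring, since the uncentred ratio had a median of 0.28 in IR29 and 0.11 in Pok. At a limit of 2 on the log2 scale, 312 members had Pok above and 88 had IR29 above. The values ran from -4.45 for Os02g40890.2, a GLTP domain protein, to 8.28 for Os12g38300.1, a metallothionein. Below, a transcript is said to have risen or fallen in a genotype where that genotype's own centred log2 ratio was 1 or more, or -1 or less. By this measure 1168 members rose (9.71%) and 954 fell (7.93%) in IR29, while 1363 rose (11.3%) and 561 fell (4.66%) in Pok. Values of a transcript are given from control to salt, in FPKM without centring, and folds are plain ratios of them.

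**Figure D1:**
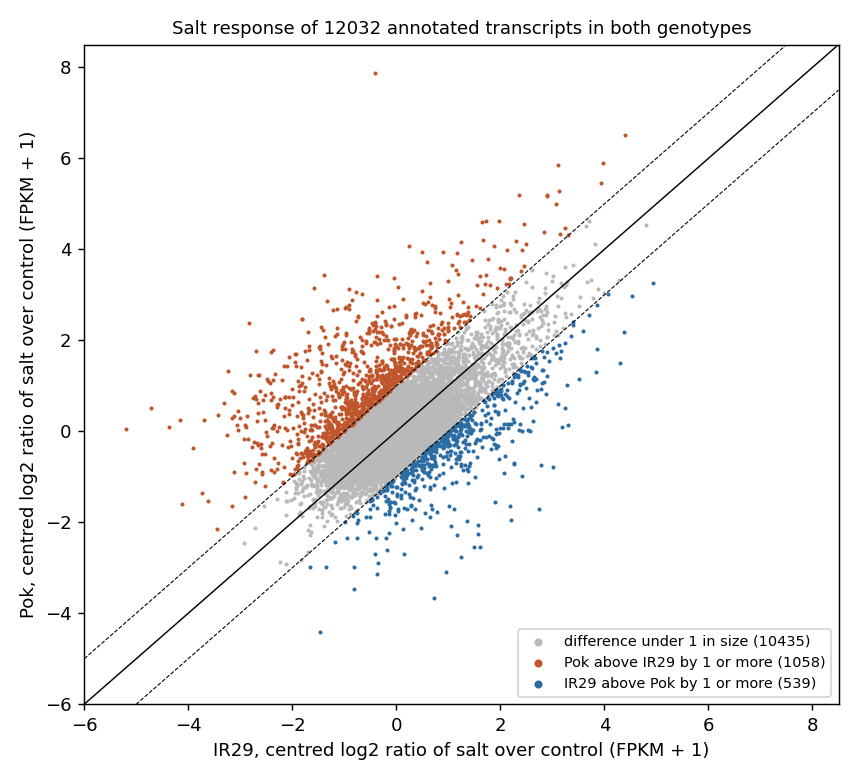
Each point is 1 of the 12032 annotated transcripts, placed by its centred log2 ratio of salt over control in IR29 (x axis) and in Pok (y axis), both of FPKM plus 1. The solid line marks equal ratios and the dashed lines a response difference of 1, and the cloud is wider above the lines (1058 transcripts) than below them (539).

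A difference between the genotypes could be made in several ways. Among the 1058 members with Pok above, 373 (35.3%) rose in Pok and lay between the limits in IR29, and 310 (29.3%) fell in IR29 and lay between the limits in Pok. A further 216 (20.4%) lay between the limits in both genotypes, 77 (7.28%) rose in Pok and fell in IR29, 72 (6.81%) rose in both, and 10 fell in both. This order depended on the filter and the centring. Among members at 5 FPKM or more in all 4 libraries, centred anew, 124 fell in IR29 alone, 110 lay between the limits in both and 80 rose in Pok alone, and without centring 187 fell in IR29 alone. Among the 539 members with IR29 above, 200 (37.1%) rose in IR29 alone, 109 (20.2%) fell in Pok alone, 147 (27.3%) were within the limits in both, 62 (11.5%) rose in both, 17 (3.15%) rose in IR29 and fell in Pok, and 4 fell in both. IR29 salt was the lowest of the 4 libraries for 403 and Pok control for 573 of the 1058 members with Pok above. Over all 12032 members those libraries were the lowest for 23.4% and 19.1%. A low value in either of them raises the response difference, so the rule itself favours them as the lowest with Pok above. Which library is the lowest or stands apart is thus partly set by the rule. For 329 of the 1058 (31.1%) a single library stood 1 or more away from each of the other 3, which lay within 1 of each other. That library was Pok control, standing low, for 135, and IR29 salt, standing low, for 71. For 175 of the 539 with IR29 above (32.5%), it was most often IR29 salt, standing high, with 63. IR29 control, standing low, followed with 52. IR29 control was the lowest of the 4 libraries for 366 of the 539, and for 47.8% of all 12032 members. In this direction the rule favours IR29 control or Pok salt as the lowest.

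**Figure D2:**
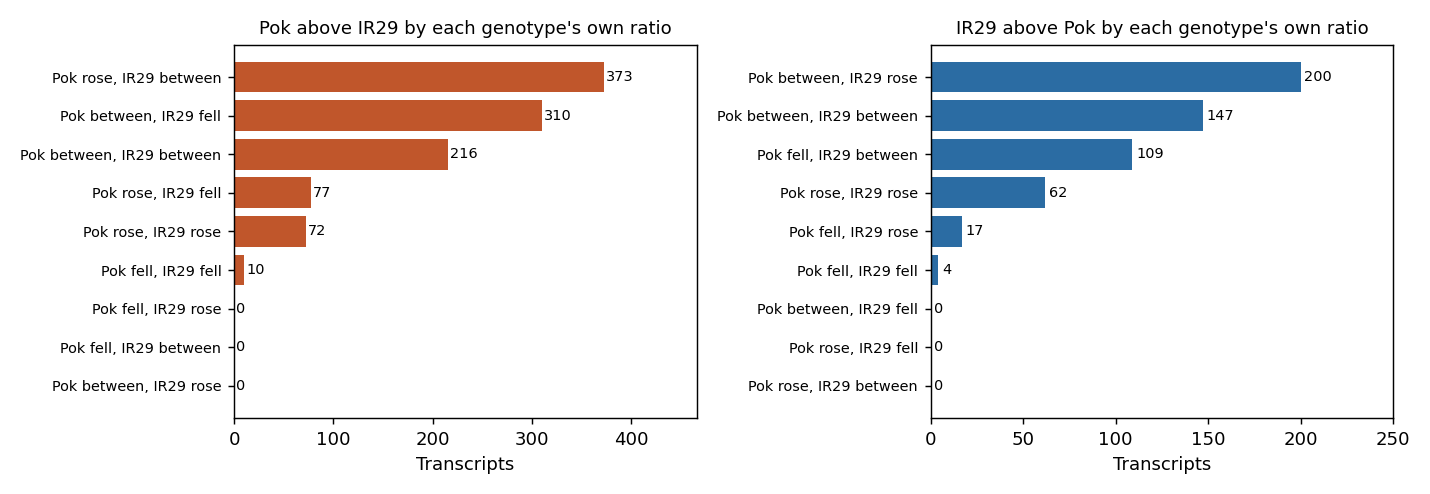
Bars count the transcripts past the limit by what each genotype's own centred ratio did, with rose for 1 or more, fell for -1 or less and between for the rest. With Pok above IR29 the fullest classes are Pok rising alone (373) and IR29 falling alone (310), and with IR29 above Pok the fullest is IR29 rising alone (200), in the filter and centring as reported.

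Members with a low value in some library passed the limit more often. Of the 7424 members at 5 FPKM or more in all 4 libraries, 344 (4.63%) had Pok above and 156 (2.10%) had IR29 above. Of the 607 with a value under 1 FPKM in some library, 192 (31.6%) and 107 (17.6%) did. Among the 425 members that reached 100 FPKM or more, 79 (18.6%) had Pok above and 32 (7.53%) had IR29 above. At the limits of the rule, Os03g27350.3 entered with a highest value of 5.00052 FPKM and Os03g55950.2 stayed out with 4.99906 FPKM, while the nearest differences inside and outside the limit were 1.00117 for Os04g38410.1 and 0.999856 for Os11g05160.1 with Pok above, and -1.00046 for Os07g48830.1 and -0.999992 for Os12g16240.1 with IR29 above.

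The FPKM of a gene is divided among its assembled transcripts, so that a difference of 1 transcript may be a shift between transcripts of the same gene. The response difference was therefore taken again from the sum over all assembled transcripts of each gene. Of the 1058 members with Pok above, 747 (70.6%) kept a difference of 1 or more in the gene sum, with a median of 1.28. Of the 539 with IR29 above, 203 (37.7%) kept a difference of -1 or less, with a median of -0.63. In a gene with 1 assembled transcript the sum is that transcript, so the 570 and 126 such members kept their difference by definition. Of the members from genes with several, 177 of 488 (36.3%) with Pok above and 77 of 413 (18.6%) with IR29 above kept it. The directions also differed in how many of the members came from genes with several assembled transcripts, which were 488 (46.1%) with Pok above and 413 (76.6%) with IR29 above, beside 58.4% of all members. Of the 77 transcripts that rose in Pok and fell in IR29, 64 kept their difference in the gene sum, against 1 of the 17 with the opposite pattern. For the transcripts described below, the gene sum is given where it lay on the other side of the limit from the transcript.

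**Figure D3:**
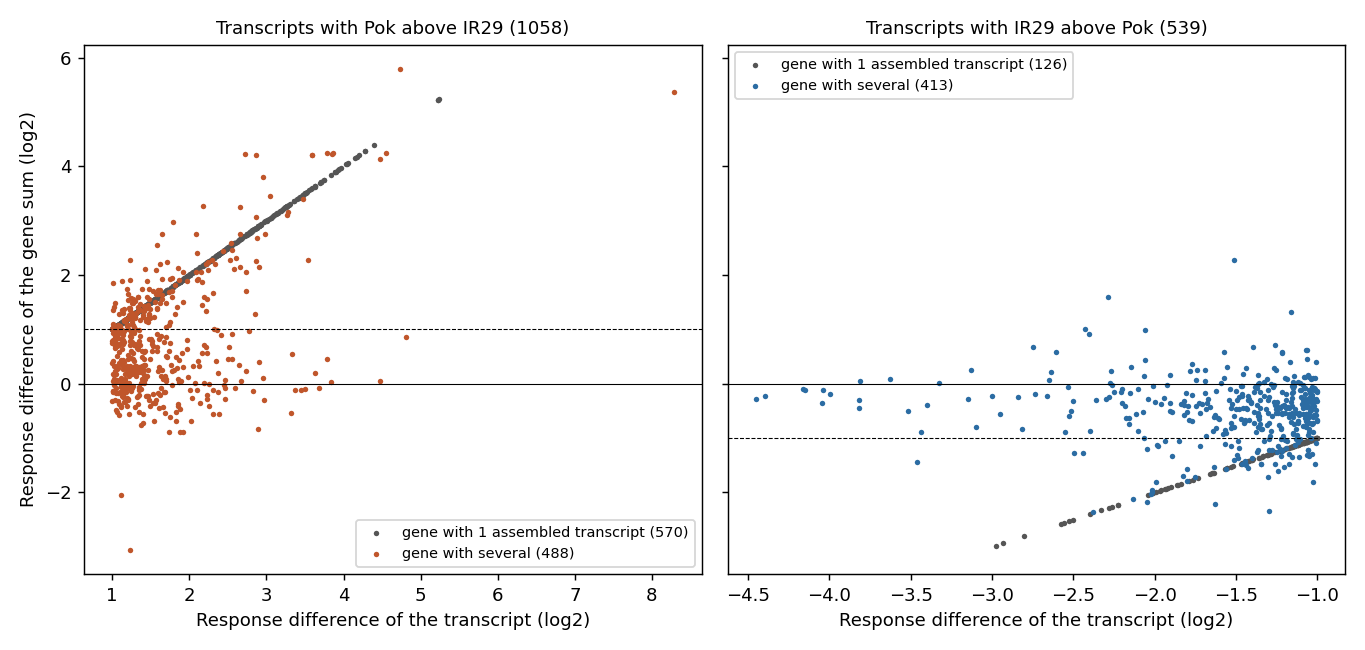
For each transcript past the limit, the response difference of the transcript (x axis, log2) is set against that of the sum over all assembled transcripts of its gene (y axis, log2), with the transcripts that have Pok above on the left and those with IR29 above on the right. Genes with 1 assembled transcript lie on the diagonal, and of those with several, 177 of 488 with Pok above and 77 of 413 with IR29 above kept a gene sum past the dashed limit.

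Dehydrins rose in both genotypes, and 5 of 6 rose farther in Pok. These hydrophilic proteins accumulate in cells that lose water. Of the 6 members among 7 annotated dehydrins, 5 had Pok above IR29 and 1 lay within the limit, with a median difference of 2.04. The 5 lay in 1 run of neighbouring loci on chromosome 11. Os11g26790.1 went from 3.73 to 89.3 FPKM in IR29 and from 6.31 to 467 FPKM in Pok. Both controls were low and Pok salt was the highest library by far, so that the salt over control ratio of FPKM was 74.1-fold in Pok and 23.9-fold in IR29, and the response difference was 1.91. Its neighbour Os11g26750.1 went from 0.172 to 11.3 FPKM in IR29 and from 0.758 to 109 FPKM in Pok, with a difference of 2.74. The dehydrin on another chromosome, Os02g44870.1, went from 22.3 to 165 FPKM in IR29 and from 38.1 to 138 FPKM in Pok. It rose in both genotypes with a difference of -0.83, on the side of IR29.

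Other LEA proteins showed the same order. Of 17 members among 27 annotated, 11 had Pok above and none had IR29 above, with a median difference of 1.62 that rested on median centred log2 ratios of 3.92 in Pok and 1.87 in IR29. In each genotype 12 of the 17 rose and none fell, and Pok salt was the highest library for 14. The median was 0.46 among the LEA members that reached 5 FPKM in each of the 4 libraries. Os05g46480.2, of LEA group 3 by its annotation, went from 4.50 to 140.5 FPKM in IR29 and from 5.65 to 653 FPKM in Pok. Pok salt was the highest and the controls were alike, and the difference was 2.10. Os04g52110.1 went from 0.0769 to 3.34 FPKM in IR29 and from 0.324 to 34.4 FPKM in Pok, a difference of 2.90. Pok salt was its only library at 5 FPKM or more, so the filter fixed which library was its highest. The same held for another LEA member. The AWPM-19 membrane protein Os05g31670.1, of a family that abscisic acid induces, went from 0.786 to 15.2 FPKM in IR29 and from 1.02 to 77.3 FPKM in Pok, a difference of 2.26. It had the largest difference of the 8 members listed as AWPM-19 and RCI2 membrane proteins. Of these 8, 2 had Pok above and none had IR29 above, with a median of 0.19 and a lowest value of -0.41. The 4 abscisic stress-ripening members all lay on the side of Pok without passing the limit, between 0.56 and 0.82.

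Genes of abscisic acid synthesis and signalling did not show this order. The 4 members annotated as 9-cis-epoxycarotenoid dioxygenases, which make the precursor of abscisic acid, had differences between -0.77 and -0.10. Os07g05940.1 went from 0.671 to 19.8 FPKM in IR29 and from 1.42 to 14.7 FPKM in Pok, and thus rose in both genotypes with a larger ratio in IR29. Of 46 protein phosphatases 2C, a family that holds negative regulators of abscisic acid signalling, 1 had Pok above and 3 had IR29 above, with a median of -0.31. Os09g15670.1 rose in both, from 4.59 to 46.3 FPKM in IR29 and from 19.2 to 73.3 FPKM in Pok, and had a difference of -1.03.

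**Figure D4:**
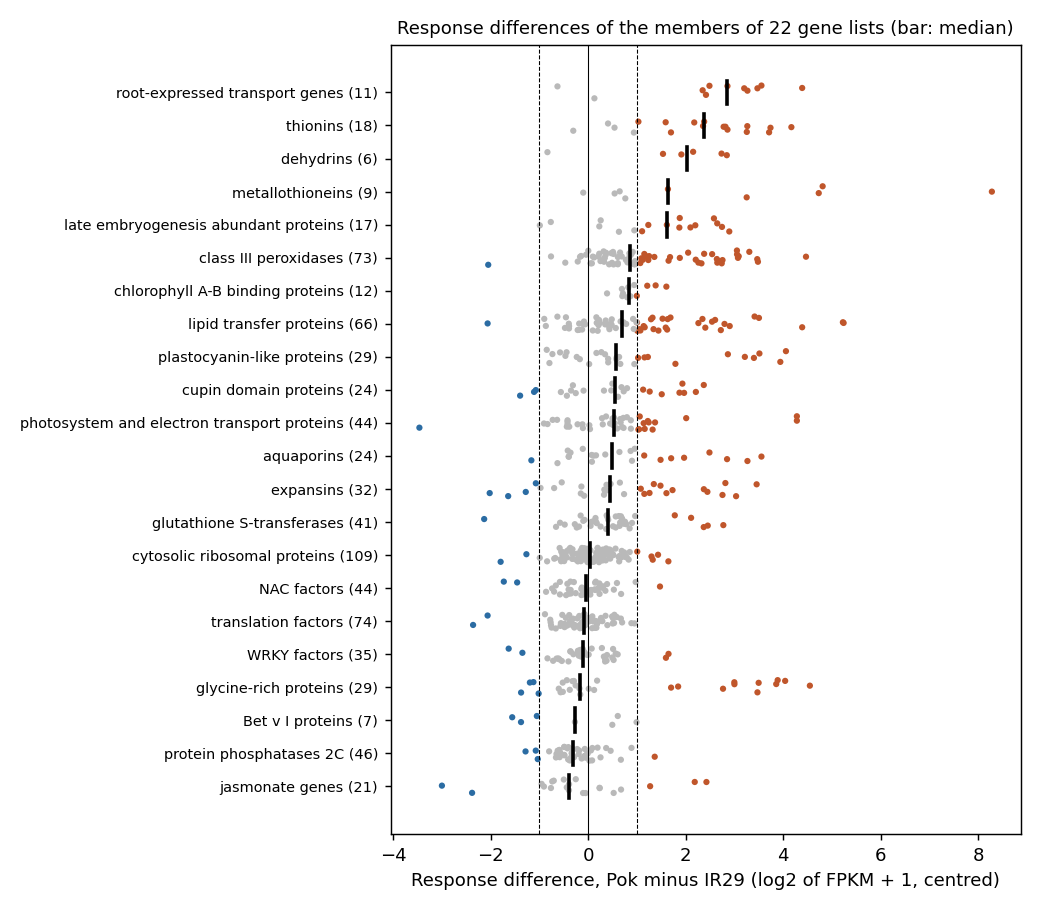
Each point is the response difference (x axis, Pok minus IR29, log2) of a member of the named gene list, with the number of members in brackets and the median as a black bar, orange points at 1 or more and blue points at -1 or less. Of the lists drawn, root-expressed transport genes, thionins, dehydrins, metallothioneins and LEA proteins have the highest medians, while ribosomal proteins, translation factors and the NAC and WRKY factors centre near 0.

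Most genes of the root-expressed list fell in IR29 and none fell in Pok. The list of root-expressed transport genes holds water channels, ammonium, metal and other transporters and a lipid transfer protein, taken as genes known from roots, and 11 of its 14 annotated transcripts were members. Of these, 9 had Pok above, with a median difference of 2.86. In IR29 9 fell and none rose, while in Pok 4 rose and none fell. IR29 salt was the lowest library for 8 of the 11. Os02g44310.1, the lipid transfer protein LTPL112, went from 116 to 6.99 FPKM in IR29 and from 31.8 to 41.0 FPKM in Pok. It fell 16.6-fold in IR29, where Pok changed 1.29-fold, and the difference was 4.39. The aquaporin Os04g44060.1 went from 58.8 to 21.7 FPKM in IR29 and from 32.5 to 132 FPKM in Pok. It thus fell in IR29 and rose in Pok, with a difference of 3.56. A second aquaporin, Os02g51110.1, went from 50.4 to 8.93 FPKM in IR29 and from 20.2 to 34.1 FPKM in Pok, a difference of 3.27. The exceptions were Os07g15370.1, annotated as a metal transporter Nramp6, at 0.13, and the aquaporin Os06g22960.1, at -0.63.

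Among all 24 aquaporins, the channels that let water cross membranes, 8 had Pok above and 1 had IR29 above, with a median of 0.50, so the shift was carried by a subset. Os02g44080.1 went from 29.9 to 7.43 FPKM in IR29 and from 19.2 to 26.6 FPKM in Pok, a difference of 2.49. Os02g41860.3 had a difference of 2.85, with a gene sum of 1.28. The ammonium transporters Os02g40710.1 and Os02g40730.1, which take up nitrogen, had differences of 3.48 and 3.20. Os02g40730.1 went from 10.1 to 6.85 FPKM in IR29 and from 2.37 to 18.6 FPKM in Pok, so Pok control was the lowest and Pok salt the highest. Os02g03900.1, another transcript annotated as Nramp6, went from 21.1 to 5.38 FPKM in IR29 and from 5.64 to 21.3 FPKM in Pok. The genotypes mirrored each other, with IR29 control close to Pok salt and IR29 salt close to Pok control, and the difference was 3.71.

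Nicotianamine synthases make a chelator with which grasses move iron and build the compounds they secrete to take it up. All 3 members were lowest in IR29 salt and highest in Pok salt, and 2 had Pok above. Os03g19427.1 went from 1.30 to 0.107 FPKM in IR29 and from 0.905 to 14.0 FPKM in Pok. Os03g19420.2 went from 0.825 to 0.185 FPKM in IR29 and from 0.563 to 10.7 FPKM in Pok. Pok salt stood above the other 3 libraries in each, with differences of 4.20 and 3.69. Both became members through Pok salt alone, the only library at 5 FPKM or more, so the filter fixed which library was their highest. They are neighbouring loci of 1 family, and reads could be shared between them. Os07g48980.1, which went from 20.7 to 13.2 FPKM in IR29 and from 24.5 to 25.7 FPKM in Pok, had a difference of 0.85. The median of the 3 was 3.69, and it was 5.91 with a pseudocount of 0.1 FPKM and 1.78 with 5 FPKM.

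Sodium and potassium carriers that were members stood out less. Of 14 annotated transcripts listed for sodium and potassium transport, 6 were members, none had Pok above and 1 had IR29 above. The deposited table gives the label OsHKT1, of the HKT family of sodium and potassium carriers, to 4 annotated transcripts of different loci, so they are named here by locus. Os01g20160.1, the HKT locus that the study discusses, stayed under 5 FPKM in all 4 libraries and was no member. It went from 1.20 to 0.395 FPKM in IR29 and from 0.670 to 4.07 FPKM in Pok, with Pok salt the highest. The study describes this gene as slightly lowered in IR29 and strongly raised at the translational level in Pok. The counts of members leave it out. Os04g51820.3 was the member among the 4. It went from 1.81 to 6.73 FPKM in IR29 and from 2.48 to 7.44 FPKM in Pok and rose in both genotypes, with a difference of -0.01. Os06g48810.1, labelled OsHKT2, went from 5.13 to 2.17 FPKM in IR29 and from 3.45 to 1.65 FPKM in Pok and had a difference of 0.37, with a gene sum of 1.18. The protein kinase Os06g40370.1, listed for its place in salt signalling, passed the limit on the side of IR29 at -1.36, but its gene sum was at 0.02. The 11 other potassium transporters lay between -0.52 and 0.43.

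Cell wall and secreted proteins held many differences on the side of Pok. On chromosome 10, 9 members annotated as glycine-rich cell wall proteins, structural proteins of the wall, all had Pok above, between 2.77 and 4.55 with a median of 3.50. Os10g31660.1 went from 113 to 21.6 FPKM in IR29 and from 70.5 to 142 FPKM in Pok. IR29 salt stood below the other 3 libraries, and the difference was 3.50. Os10g31690.1 went from 37.5 to 3.99 FPKM in IR29 and from 11.9 to 33.8 FPKM in Pok, a fall of 9.41-fold in IR29 and a rise of 2.85-fold in Pok, with a difference of 4.55. These loci share an annotation, so reads may be divided among them. The full list of 29 glycine-rich members had a median of -0.16, with 11 Pok above and 4 IR29 above, and the chromosome 10 group was split off after its values were seen.

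Lipid transfer proteins, small secreted proteins that bind lipids in the wall and cuticle, had Pok above in 28 of 66 members and IR29 above in 1, with a median of 0.70. In IR29 22 fell and 6 rose, and in Pok 4 fell and 14 rose. LTPL121 (Os04g46820.1) went from 33.9 to 0.150 FPKM in IR29 and from 5.22 to 5.92 FPKM in Pok, and its neighbour LTPL120 (Os04g46810.1) went from 32.1 to 0.534 FPKM in IR29 and from 4.65 to 7.76 FPKM in Pok. In each of them IR29 went from the highest of the 4 libraries to the lowest while Pok moved little, which gave differences of 5.24 and 5.23. LTPL123 (Os04g52250.1) was the member with IR29 above, at -2.06, and its gene sum was 0.98.

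Class III peroxidases, secreted enzymes that use hydrogen peroxide to cross-link or loosen walls, had Pok above in 30 of 73 members and IR29 above in 1, with a median of 0.85. In IR29 23 fell and 8 rose, and in Pok 1 fell and 21 rose. Os01g18970.1 went from 16.7 to 0.0427 FPKM in IR29 and from 1.53 to 1.94 FPKM in Pok, a difference of 4.47. Its IR29 salt value was near 0, and the controls also differed, with IR29 higher. IR29 control was its only library at 5 FPKM or more, so the filter fixed which library was its highest. Os04g34630.1 went from 11.6 to 6.77 FPKM in IR29 and from 4.73 to 25.9 FPKM in Pok, with Pok salt the highest library and a difference of 3.09. Os12g02060.1 went the other way, from 2.30 to 57.3 FPKM in IR29 and from 1.15 to 7.20 FPKM in Pok, a difference of -2.05. Plastocyanin-like proteins, copper-binding proteins of the cell surface, had Pok above in 10 of 29 and IR29 above in none. Os11g24140.1 went from 29.6 to 15.9 FPKM in IR29 and from 8.77 to 49.9 FPKM in Pok, the highest in Pok salt, and a difference of 3.40.

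Expansins loosen cell walls without cutting them, and their members parted by annotation. Of 28 expansins other than those annotated as beta-expansins, 13 had Pok above and none had IR29 above, with a median of 0.70. All 4 members annotated as beta-expansins had IR29 above, between -2.02 and -1.07. This split followed the wording of the annotation, which may not match the expansin families. It was made after the values were seen. Os03g01260.1, annotated as an expansin, went from 15.1 to 5.66 FPKM in IR29 and from 5.41 to 11.3 FPKM in Pok, a difference of 2.38. The beta-expansin Os09g29710.1 went from 20.8 to 118 FPKM in IR29 and from 19.1 to 23.3 FPKM in Pok, so that IR29 salt stood above the other 3 libraries, which were alike. Its difference was -2.02, and its neighbour Os09g29690.1, which went from 23.7 to 77.7 FPKM in IR29 and from 23.9 to 28.1 FPKM in Pok, followed with -1.28. Os06g47360.1 rose in both genotypes, from 5.80 to 42.3 FPKM in IR29 and from 9.53 to 27.5 FPKM in Pok, with a difference of -1.07.

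SCP-like extracellular proteins, the family of the defence protein PR-1, had Pok above in 8 of 17 and IR29 above in 2, and 11 of them rose in IR29 and 13 in Pok. Laccases, oxidases of lignin building, had Pok above in 3 of 10. Cellulose synthases had Pok above in 1 and IR29 above in none of 21, with a median of 0.15. Pectin enzymes had Pok above in 1 and IR29 above in 2 of 33, with a median of -0.06 and a lowest value of -2.60. IR29 salt was the lowest library for 8 of 11 root-expressed genes, for 32 of 66 lipid transfer proteins and for 33 of 73 peroxidases. Pok control was the lowest for 2, 13 and 28 of them, in that order. Over all members IR29 salt was the lowest for 23.4% and Pok control for 19.1%. The lipid transfer protein LTPL112 belongs to both of the first lists. The part of root tissue in these differences was not tested.

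Most thionins rose in Pok from a low control. Thionins are small cysteine-rich peptides that act against microbes, and 18 of 41 annotated ones were members. Of these, 14 had Pok above and none had IR29 above, with a median difference of 2.37. In Pok 15 rose and none fell, and in IR29 2 rose and 2 fell. Pok control was the lowest library for 15 of the 18, and their sum went from 3738 to 3105 FPKM in IR29 and from 256 to 1404 FPKM in Pok. THION8 (Os06g32200.1) went from 439 to 271 FPKM in IR29 and from 18.4 to 139 FPKM in Pok. The salt value of Pok thus stayed under both IR29 values, although Pok rose 7.58-fold and the difference was 3.71. THION5 (Os06g31960.1) went from 526 to 383 FPKM in IR29 and from 28.7 to 184 FPKM in Pok, a difference of 3.27, and Os06g31930.1 next to it followed with 3.26. The chromosome 6 thionins are members of 1 family side by side, and reads may be shared among them. The thionin-like peptide Os07g24820.1, which went from 77.4 to 34.1 FPKM in IR29 and from 4.37 to 27.7 FPKM in Pok, had a difference of 3.74.

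Metallothioneins, which bind metal ions through their many cysteines, had the same shape. Of 9 members among 10 annotated, 5 had Pok above and none had IR29 above, with a median of 1.64, and Pok control was the lowest library for 8. The median was 0.78 among those that reached 5 FPKM in each library. Os12g38300.1, the largest difference of all members, went from 6.27 to 5.67 FPKM in IR29 and from 0.690 to 429 FPKM in Pok. Pok salt alone was high, and the difference was 8.28 for the transcript and 5.36 for the sum of its gene, in which IR29 control had 899 FPKM and Pok salt 926 FPKM. Os12g38051.1 went from 112 to 44.9 FPKM in IR29 and from 12.4 to 128 FPKM in Pok, with a fall in IR29, a rise in Pok and a difference of 4.73. Os12g38010.1 went from 47.6 to 45.0 FPKM in IR29 and from 4.39 to 42.3 FPKM in Pok. Pok control was the library that stood apart, and the difference was 3.25. Os01g05585.1 had a transcript difference of 4.81 and a gene sum of 0.87, while Os01g74300.1, which went from 521 to 506 FPKM in IR29 and from 253 to 345 FPKM in Pok, differed by 0.65. Several of these loci lie close together on chromosomes 1 and 12, and the division of reads among them is uncertain.

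**Figure D5:**
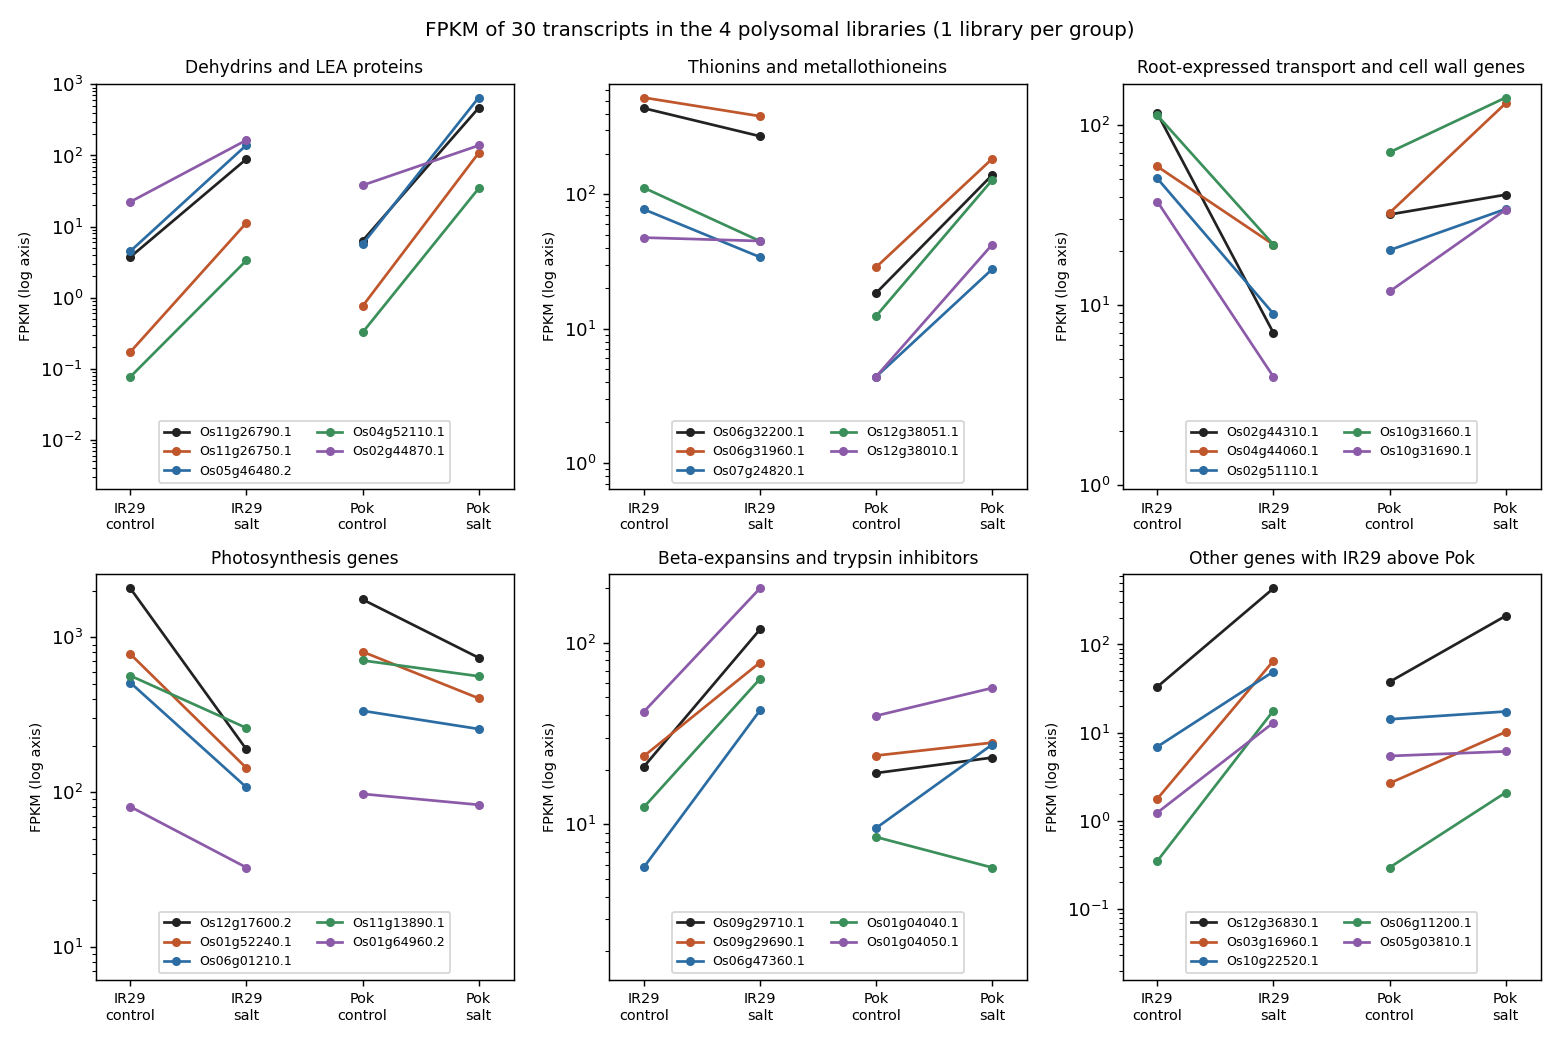
FPKM (log axis) of 30 transcripts in the 4 libraries, 1 point per library, with a line from control to salt within each genotype and 1 colour per transcript in each panel. Dehydrins and LEA proteins rise in both genotypes, thionins and metallothioneins start low in Pok control, root-expressed and glycine-rich genes drop in IR29 salt, photosynthesis genes fall farther in IR29, and the last 2 panels show genes that rise farther in IR29.

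Glutathione S-transferases, which couple glutathione to toxic compounds, had Pok above in 5 of 41 (12.2%) and IR29 above in 1, beside 8.79% and 4.48% of all members. Catalases, ascorbate peroxidases and superoxide dismutases, which remove active oxygen, had 1 in each direction among 14. Of the 5 transferases, 4 were neighbours on chromosome 1, with differences between 1.78 and 2.46. Os01g72170.1 went from 9.77 to 8.38 FPKM in IR29 and from 3.50 to 17.1 FPKM in Pok, a difference of 2.37. Cupin domain proteins, a family that holds germins and oxalate oxidases, had Pok above in 8 of 24 and IR29 above in 3. Os08g08970.1 went from 23.9 to 35.9 FPKM in IR29 and from 22.5 to 121 FPKM in Pok, with Pok salt the highest and a difference of 1.97. Proteinase inhibitors went both ways, with Pok above in 4 and IR29 above in 2 of 18 and a median of 0.57, which was 0.02 among those that reached 5 FPKM in each library. The cysteine proteinase inhibitor Os09g08100.1 went from 0.651 to 2.15 FPKM in IR29 and from 2.09 to 30.8 FPKM in Pok, a difference of 2.60, where Pok salt stood high. Pok salt was its only library at 5 FPKM or more, so the filter fixed which library was its highest.

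Photosynthesis genes were lowered farther in IR29. All 12 chlorophyll A-B binding proteins, the light-harvesting antenna, had differences on the side of Pok, from 0.39 to 1.61, and 4 of them passed the limit. In IR29 10 of the 12 fell, and in Pok 2 fell, and IR29 salt was the lowest library for all 12. Os01g52240.1 went from 781 to 143 FPKM in IR29 and from 809 to 404 FPKM in Pok. It fell 5.45-fold in IR29 and 2.00-fold in Pok, with a difference of 1.61. These antenna genes are also the leaf genes summed above, and the part of leaf tissue in their difference was not tested. Os12g17600.2, a small chain of Rubisco, the enzyme that fixes carbon dioxide, went from 2075 to 189 FPKM in IR29 and from 1759 to 739 FPKM in Pok. The controls were close and IR29 salt was the lowest, and the difference was 2.37. Os06g01210.1, a plastocyanin that carries electrons between the photosystems, went from 510.3 to 107 FPKM in IR29 and from 336 to 256 FPKM in Pok, a difference of 2.01.

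Over 44 photosystem and electron transport members, 12 had Pok above and 1 had IR29 above, with a median of 0.54, and 19 fell in IR29 against 2 in Pok. The 2 largest differences of that list belonged to Os01g58038.1 and Os02g24628.1, both annotated as photosystem II reaction center protein Z. They had identical values, from 1252 to 429.9 FPKM in IR29 and from 101 to 609 FPKM in Pok, with a difference of 4.28, and so may be copies that share reads. Pok control was the lowest there, unlike in the antenna genes. The photosystem II 10 kDa polypeptide Os07g05360.1 went the other way, from 15.6 to 74.3 FPKM in IR29 and from 173 to 63.0 FPKM in Pok, a transcript difference of -3.46 and a gene sum of -1.45. Rubisco and Calvin cycle enzymes, small chains included, had Pok above in 4 of 21 and IR29 above in none, with a median of 0.33.

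Besides the beta-expansins, some defence proteins had IR29 above Pok, among them the 2 proteinase inhibitors counted above on that side. BBTI11 (Os01g04040.1), a Bowman-Birk trypsin inhibitor that blocks digestive proteases of insects, went from 12.4 to 63.1 FPKM in IR29 and from 8.51 to 5.78 FPKM in Pok. IR29 salt was the highest library and Pok salt the lowest, with a difference of -2.58. Its neighbour BBTI12 (Os01g04050.1) went from 41.6 to 199 FPKM in IR29 and from 39.5 to 56.2 FPKM in Pok, a difference of -1.56. Os03g16960.1, a secreted protein with cysteine-rich repeats, went from 1.78 to 65.3 FPKM in IR29 and from 2.67 to 10.2 FPKM in Pok. It rose 36.7-fold in IR29 and 3.82-fold in Pok, a difference of -2.80.

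Of 7 Bet v I proteins, relatives of the pathogenesis-related protein PR-10, none had Pok above and 3 neighbours on chromosome 12 had IR29 above. The median of the 7 was -0.27, and it turned to 0.45 with members at 1 FPKM or more in 1 library and to 0.17 in gene sums. Os12g36830.1 went from 33.1 to 433 FPKM in IR29 and from 37.7 to 211 FPKM in Pok, a difference of -1.05. It rose in both genotypes, from controls that were alike to a salt value in IR29 above that in Pok. The assembled gene that joins Os12g36830.1 with Os12g36850.1 and a further locus had a sum at -0.88, under the limit. The jacalin-like lectins Os01g24710.1 and Os01g25280.1 had differences of -1.22 and -1.79, but 2 other members of that list of 7 had Pok above. The diterpene synthases Os04g09900.1 and Os04g10060.1, annotated as ent-kaurene synthases, rose in both genotypes and had differences of -1.30 and -1.18.

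Jasmonate genes went both ways. Jasmonate is the hormone of wounding, and its synthesis runs from lipoxygenases to 12-oxophytodienoate reductases. The 21 members had a median of -0.39, with 3 Pok above, all of them lipoxygenases, and 2 IR29 above, both 12-oxophytodienoate reductases. Os06g11200.1 went from 0.351 to 17.8 FPKM in IR29 and from 0.295 to 2.09 FPKM in Pok, with IR29 salt high and a difference of -2.38. IR29 salt was its only library at 5 FPKM or more, so the filter fixed which library was its highest. The reductase Os08g35740.2 had a gene sum of -0.22, under the limit. Lipoxygenases start the pathway, and Os03g52860.1 went from 15.4 to 8.51 FPKM in IR29 and from 3.98 to 12.9 FPKM in Pok, a difference of 2.43. The 6 ZIM domain proteins, repressors of jasmonate responses that jasmonate itself induces, all lay on the side of IR29 without passing the limit, from -0.95 to -0.25. Os10g25290.1 went from 8.58 to 41.1 FPKM in IR29 and from 10.8 to 23.0 FPKM in Pok, a difference of -0.95. Loci annotated as jasmonate-induced proteins, which this list does not hold, lay on the side of Pok. They were part of a run of neighbouring loci on chromosome 4 with differences between 2.47 and 3.57.

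Trehalose genes were a further group on the side of IR29, and they were chosen after their values were seen. Trehalose 6-phosphate is a signal of sugar status, made by a synthase and removed by a phosphatase. Of 13 members, 4 had IR29 above and none had Pok above, with a median of -0.55. The 3 members annotated as trehalose phosphatase were among the 4. Os05g03810.1 went from 1.24 to 13.0 FPKM in IR29 and from 5.44 to 6.13 FPKM in Pok. IR29 control was the lowest library and IR29 salt the highest, while Pok hardly moved, and the difference was -2.33. Os12g32130.1 went from 0.947 to 8.16 FPKM in IR29 and from 4.34 to 3.60 FPKM in Pok, a difference of -2.28. IR29 salt was its only library at 5 FPKM or more, so the filter fixed which library was its highest. The same held for the remaining phosphatase.

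Further transcripts measured at 5 FPKM or more in all 4 libraries had IR29 above with a gene sum past the limit. The cellulase Os10g22520.1, a wall-degrading enzyme, went from 6.93 to 49.3 FPKM in IR29 and from 14.2 to 17.4 FPKM in Pok, a difference of -2.23. Os10g28350.1, annotated as a dioxygenase of the methionine salvage pathway, went from 5.27 to 29.1 FPKM in IR29 and from 9.73 to 10.4 FPKM in Pok, a difference of -2.01. In each of these IR29 salt stood above the other 3 libraries. The heavy-metal-associated domain protein Os09g09830.1 went from 12.1 to 37.0 FPKM in IR29 and from 27.2 to 16.9 FPKM in Pok, with a rise in IR29 and a lower salt than control value in Pok, and a difference of -2.02. The NAC factor Os03g60080.1, of a family of stress transcription factors, rose in both, from 18.6 to 148 FPKM in IR29 and from 35.3 to 88.6 FPKM in Pok, a difference of -1.45.

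Most of the largest negative values were not seen in the sum of the gene. Of the 15 transcripts named for the largest differences with IR29 above, Os07g05360.1 was the 1 with a gene sum past the limit. Os02g40890.2, a GLTP domain protein, went from 2.65 to 28.6 FPKM in IR29 and from 13.7 to 3.85 FPKM in Pok, a difference of -4.45, and its gene sum had -0.28. Os10g08879.2, annotated as a nucleotide-sensitive chloride conductance regulator, had -4.39 and a gene sum of -0.23. In the reticulon Os03g56900.1, a shaper of the endoplasmic reticulum, the values were -3.82 and -0.44. On the side of Pok the gene sum fell away for Os08g40790.2, annotated as DNA repair ATPase-related, with 4.47 for the transcript and 0.05 for the sum.

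Several large families had shares near or under those of all members, which were 8.79% with Pok above and 4.48% with IR29 above. Of 109 cytosolic ribosomal proteins, 5 (4.59%) had Pok above and 2 (1.83%) had IR29 above, with a median of 0.04. Their median centred ratios were -0.55 in Pok and -0.62 in IR29. Of 74 translation factors, none had Pok above and 2 had IR29 above. Of 44 NAC factors, 1 had Pok above and 2 had IR29 above. The counts in that order were 2 and 2 for 35 WRKY factors, 7 and 3 for 102 MYB factors, and 3 and 2 for 50 AP2 and ethylene-responsive factors, and the 4 families had medians between -0.11 and -0.03. The NAC factors responded in each genotype, with 19 rising in IR29 and 16 in Pok. Histones, the proteins that package DNA, had Pok above in 3 and IR29 above in 2 of 57, and DnaJ and hsp70 chaperones, which help proteins fold, in 6 (7.41%) and 4 (4.94%) of 81.

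Some neighbouring loci differed together on the side of Pok. Loci were taken in the order of their locus names, each by its member transcript with the highest mean FPKM. Other transcripts of a locus were not used, and positions are those of the MSU v6.1 genome build. By this count, 32 runs of 3 or more loci adjacent among the members with Pok above held 128 loci, and 2 runs with IR29 above held 6. Pok above also had the larger share of all members, 8.79% against 4.48%. How many runs these shares alone would give was not tested. The longest run had 12 loci, from Os10g31530 to Os10g31730 on chromosome 10 (16444614 to 16564087), and held the 9 glycine-rich proteins. The thionin run had 9 loci, from Os06g31280 to Os06g32240 on chromosome 6 (18201176 to 18773644). The cupin run had 7 loci, from Os08g08970 to Os08g09060 on chromosome 8 (5221217 to 5260302), and the dehydrin run 5 loci on chromosome 11 (14759638 to 14880171). The glutathione S-transferase run had 4 loci on chromosome 1 (41842853 to 41853927). On the side of IR29 the runs had 3 loci each, the Bet v I genes on chromosome 12 (22547217 to 22567865) and a dehydrogenase with 2 unnamed proteins on chromosome 9 (14000191 to 14021060). The runs named so far mostly held genes of 1 family, which may share reads. Others held loci of unlike annotation, such as the 3 from Os03g18120 to Os03g18140 on chromosome 3.

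Of 63 loci that the study names for a difference between these genotypes, 56 were members, 39 of them had Pok above and 1 had IR29 above. These loci were chosen on these libraries, so their count is no independent evidence of a direction. Os01g24560.1, annotated as fruit bromelain, a cysteine protease, went from 6.19 to 1.67 FPKM in IR29 and from 1.71 to 12.4 FPKM in Pok, a difference of 3.90. Os01g19770.1, annotated as a mitochondrial import inner membrane protein, went from 0.181 to 0.698 FPKM in IR29 and from 0.0873 to 18.9 FPKM in Pok. Pok salt, the only library at 5 FPKM or more, stood far above the other 3 libraries, and the difference was 3.84. Os07g46990.2, a copper/zinc superoxide dismutase that removes superoxide, had a transcript difference of 3.33 and a gene sum of 0.54. Os06g07941.1, an iron/ascorbate-dependent oxidoreductase, went from 1.10 to 0.934 FPKM in IR29 and from 4.80 to 30.2 FPKM in Pok, with both Pok values above both IR29 values and a difference of 2.71. It too became a member through Pok salt alone.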

How the data were processed

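Polysomal poly(A) RNA of 1 library per group was sequenced by the authors. The deposited FPKM values come from their assembly and quantification with TopHat, Cufflinks, Cuffmerge, Cuffcompare and Cuffdiff against the MSU v6.1 rice genome, with versions not given in the sources used here. FPKM is normalized to transcript length and library size, so the number of reads behind each value is unknown, although the study gives read totals for the libraries. An exact 0 can be a failed estimate, and no interval or count test was possible.

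Annotated transcripts were those that the assembly matched in full to the MSU annotation. The log2 of FPKM plus 1 was taken, ratios were centred on their medians, and the limit was 1 on the log2 scale. The computation was checked on simulated libraries with known differences. These held transcripts with a mean of 5 FPKM or more and a noise that was chosen, so the check does not cover low values or the noise of the real libraries. Gene lists were built from the annotation text, 68 in all, and the members and lists were chosen with earlier results of these data known. Transcripts were named by rule, namely the 15 largest differences with a specific annotation in each direction, the 10 largest in each direction among members at 5 FPKM or more in all 4 libraries, up to 4 per list, and loci the study names. Outside this rule, and after their values were seen, the following were named: Os01g04050.1, Os01g74300.1, Os02g44870.1, Os03g01260.1, Os04g51820.3, Os04g52250.1, Os05g46480.2, Os06g22960.1, Os06g31930.1, Os06g47360.1, Os06g48810.1, Os07g15370.1, Os09g29690.1, Os10g25290.1 and Os12g02060.1, and the transcripts at the limits. Other pseudocounts, filters, centring, limits and sums per locus or per gene were tried as alternatives. The sum over all assembled transcripts of a gene was added after the data were seen. Promoter sequences were not analysed here. Python 3.11.15, pandas 2.3.3, numpy 2.4.6 and matplotlib 3.10.9 were used.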

Additional observations from a re-analysis of the deposited data

Results flagged for a closer look

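For 19 of the transcripts named above, the centred ratio was 1 or more in one genotype and -1 or less in the other. These are differences between single libraries that were not tested. Pok rose and IR29 fell for Os12g38051.1 and Os01g05585.1, both metallothioneins, with response differences of 4.73 and 4.81, and for the thionin-like peptide Os07g24820.1 with 3.74. The same pattern was seen in genes of uptake, namely the aquaporins Os04g44060.1 at 3.56 and Os02g41860.3 at 2.85, the ammonium transporter Os02g40710.1 at 3.48, Os02g03900.1 (annotated as Nramp6) at 3.71 and the nicotianamine synthase Os03g19427.1 at 4.20. It was also seen for the glycine-rich protein Os10g31690.1 at 4.55, the plastocyanin-like Os11g24140.1 at 3.40, fruit bromelain Os01g24560.1 at 3.90, the lipoxygenase Os03g52860.1 at 2.43, and the identical pair Os01g58038.1 and Os02g24628.1 at 4.28 each. For the superoxide dismutase Os07g46990.2 at 3.33 and for Os08g40790.2 at 4.47, the gene sum lay under the limit. IR29 rose and Pok fell for Os02g40890.2 at -4.45, Os03g56900.1 at -3.82 and Os07g05360.1 at -3.46, and of these Os07g05360.1 alone kept a gene sum past the limit.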

How the results depend on the processing

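The main counts were 1058 with Pok above and 539 with IR29 above. With a pseudocount of 5 FPKM they were 535 and 193, with members at 1 FPKM or more in 1 library 1670 and 875, at 10 FPKM or more in 1 library 651 and 309, at 5 FPKM or more in all 4 libraries, with ratios centred anew on these, 353 and 150, and at a limit of 2 on the log2 scale 312 and 88. Sums of annotated transcripts per locus left 342 with IR29 above, and sums of all assembled transcripts per gene left 250. The larger count stayed on the side of Pok in all 12 alternatives. Its share was lowest without centring, at 50.7%, with 826 and 802 transcripts and a median of all differences of -0.17, and was between 63.2% and 78.0% in the other 11. Of 110 counts of the response patterns over the alternatives, 51 moved by over 1.5 times. Of 795 list medians, 776 moved by less than 0.5 on the log2 scale, and 54, of 24 lists, changed sign, 49 of them from a reported median under 0.25 in size. The changes of sign by 0.5 or more were 5. The jacalin-like lectins turned from 0.62 to -0.56 at 10 FPKM or more in 1 library and to -0.13 in gene sums. Bet v I proteins turned to 0.45 at 1 FPKM or more in 1 library, sodium and potassium transport genes to -0.38 at 10 FPKM or more in 1 library, and ammonium and nitrate transporters to -0.62 at 5 FPKM or more in all 4 libraries. Of 903 values of the transcripts named above, 857 kept their side of the limit. Os08g40790.2 turned to -0.0698 when summed per locus, and Os04g52250.1 and Os06g40370.1 turned to 0.98 and 0.0158 in gene sums. Why these values turned was not tested. No paired analysis was possible because each group had 1 library. The deposited FPKM values carry no read counts, so the precision of low values is unknown, and the median of the LEA proteins was 0.46 where all 4 libraries had to reach 5 FPKM.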

Other observations

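Assembled transcripts that the assembly marked as splice variants of annotated genes, with the same filter, numbered 5674, and of these 548 (9.66%) had Pok above and 758 (13.4%) had IR29 above, with a median of -0.18. The order of the directions was thus the reverse of that in the annotated transcripts.

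A family of root cap and late embryogenesis related proteins, picked after its values were seen, had 4 members, all with Pok above. Os05g47940.1 (RCLEA8) went from 17.1 to 6.82 FPKM in IR29 and from 3.03 to 14.9 FPKM in Pok, a difference of 3.35. Os01g73720.1 (RCLEA4), Os01g73730.1 (RCLEA5) and Os01g73700.1 (RCLEA2) had differences of 3.60, 3.60 and 2.87. In each of the 4, IR29 control was the highest library. RCLEA4, RCLEA5 and RCLEA2 became members through IR29 control alone, the only library at 5 FPKM or more, so the filter fixed their highest library.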
